A study of Mus musculus with 8 samples.

Results

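The Hedgehog pathway genes described here were the 9 genes *Shh*, *Ptch1*, *Smo*, *Gli1*, *Gli2*, *Gli3*, *Hhip*, *Gas1* and *Boc*, taken by symbol from 24849 gene rows, each with 1 row in the file of every library. Their expression was measured by polyA+ RNA-seq in MPI-II mouse embryonic stem cells (mESCs) of the 129S2/SvPas strain. The 4 conditions were wild type (WT) and *Pcgf5*-/- cells at day 0 and at day 6 of neural differentiation, with 2 libraries each and 8 libraries in all. Before differentiation, cells of both genotypes were kept on feeder-coated plates with LIF and the inhibitors CHIR99021 and PD0325901, and differentiation was started by a change to N2B27 medium. *Pcgf5*, which encodes a Polycomb group RING finger protein, had been disrupted with TALENs in its second exon and single colonies had been picked, so the knockout is clonal, and the sources used here do not say whether its libraries came from 1 clone or more. The series asked whether PCGF5 is needed for neural differentiation, and the comparisons below ask how genes of the Hedgehog pathway differed between genotypes and between days.

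Sonic hedgehog is a secreted ligand. It binds the receptor Patched1, encoded by *Ptch1*, which in the absence of ligand keeps the membrane protein Smoothened, encoded by *Smo*, inactive. Active Smoothened, acting at the primary cilium, stops the processing of Gli2 and Gli3 into repressors, and the Gli factors then induce target genes that include *Gli1*, *Ptch1* and *Hhip*. Gas1 and Boc are co-receptors at the cell surface that help the ligand to bind. In the neural tube, Hedgehog signalling sets ventral cell fates, and Gli3 acts there largely as a repressor.

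Values are FPKM from Cufflinks, that is, fragment counts that the authors divided by the length of the gene's exons and by the size of the library, so levels of different genes can be compared. Differences are on the log2(FPKM + 1) scale and understate the change of genes with low values. They were tested with limma, two-sided, over the 13214 genes with a mean above 1 FPKM in at least 1 condition, and a gene was called when its Benjamini-Hochberg adjusted p was under 0.05. Of the 9 genes 8 were tested; *Shh* stayed under the minimum in every condition, and *Hhip* passed it only through *Pcgf5*-/- cells at day 6, where it was highest.

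The targeted gene was low in the cells labelled as knockout. *Pcgf5* had 5.18 and 3.63 FPKM in WT and 1.28 and 1.84 in *Pcgf5*-/- cells at day 0, and 9.16 and 5.06 against 0.669 and 0.457 at day 6. The means were 4.40 ± 1.09 (SD, n = 2) and 1.56 ± 0.395 at day 0 and 7.11 ± 2.90 and 0.563 ± 0.150 at day 6, with an adjusted p (limma) of 0.105 at day 0 and 0.00421 at day 6. No read totals were given, and the depth of the libraries, estimated from the FPKM steps of genes with low values, was 0.990 to 1.29 times that of the first WT library at day 0. Naive pluripotency markers summed to between 2121 and 2290 FPKM in the 4 day 0 libraries. At day 6 the sums were 378 and 170 in WT and 1022 and 994 in *Pcgf5*-/- cells, and 9 of 10 of these markers were called higher in *Pcgf5*-/- cells, as were 9.57% of all tested genes. Neural progenitor markers summed to 785 and 826 FPKM in WT and 343 and 332 in *Pcgf5*-/- cells at day 6, and 11 of 11 were called lower, as were 7.05% of all tested genes. Of the other marker lists tested between genotypes at day 6, 5 of 10 neuron and 2 of 8 neural crest markers were called lower, while 0 of 13 fibroblast, 0 of 8 primitive endoderm and 0 of 6 mesendoderm markers were called. In these bulk libraries, fewer cells of a type and less RNA per cell cannot be told apart, which holds for each difference below.

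During differentiation of WT cells the co-receptors *Boc* and *Gas1*, the signal transducer *Smo* and the transcription factor *Gli3* rose. In *Pcgf5*-/- cells *Boc*, *Smo* and *Gli3* rose as well, and at day 6 *Boc*, *Gli3* and *Gas1* were lower than in WT. *Gli2* and *Ptch1* stayed within a narrower range. *Shh* and *Hhip* were low throughout, and *Gli1* lay between 0.276 and 3.37 FPKM. The plot of FPKM by library shows all 9 genes.

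**Figure D1:**
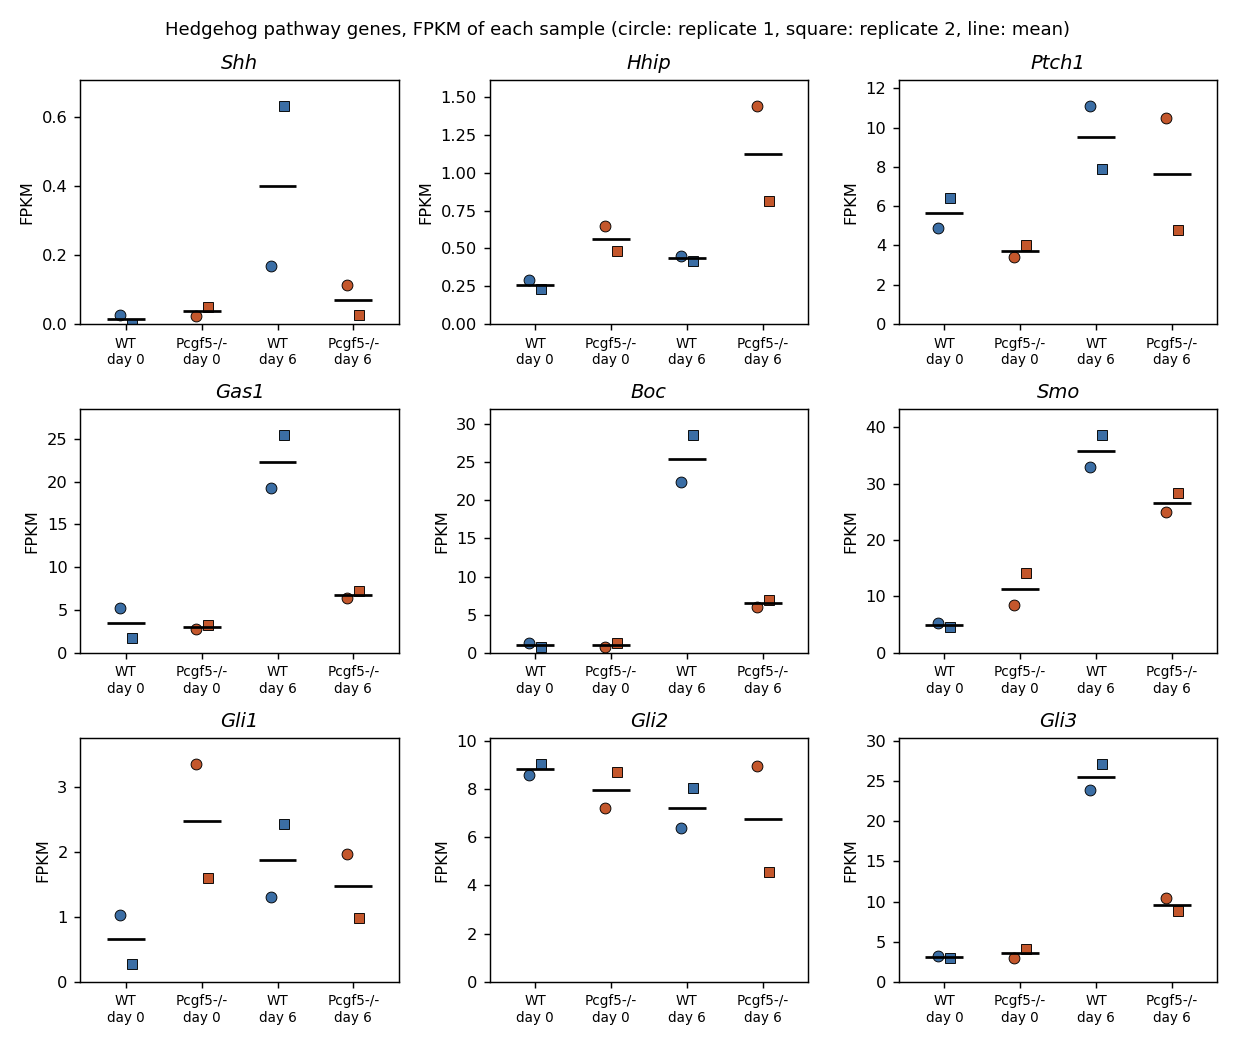
FPKM of the 9 Hedgehog pathway genes in each of the 8 libraries by genotype and day, with replicate 1 as circles, replicate 2 as squares, and the mean of 2 libraries as a line (each panel has its own axis from 0). For *Boc*, *Gas1* and *Gli3* the WT libraries at day 6 lie above all 6 others.

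Among the receptors and co-receptors, *Boc* (mm9, chr16:44485158-44558983) had 1.31 and 0.811 FPKM in WT cells at day 0, and 0.803 and 1.34 in *Pcgf5*-/- cells. After 6 days the values were 22.3 and 28.6 FPKM in WT and 6.04 and 6.97 in *Pcgf5*-/- cells. The genotypes overlapped at day 0 and were apart at day 6, when both WT libraries stood above both *Pcgf5*-/- libraries. The mean in WT was 24.0 times higher at day 6 than at day 0, a log2 difference of 3.68 (SE 0.23, adjusted p = 1.5e-05, limma), and in *Pcgf5*-/- cells it was 6.08 times higher, a log2 difference of 1.87 (adjusted p = 0.000955). At day 6 the WT mean was 3.91 times the *Pcgf5*-/- mean, and *Boc* was lower in *Pcgf5*-/- cells by a log2 difference of -1.81 (SE 0.23, adjusted p = 0.00455, limma), a call that held in each alternative analysis and without each library in turn.

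*Gas1* (mm9, chr13:60275766-60278896) had 5.19 and 1.72 FPKM in WT and 2.76 and 3.31 in *Pcgf5*-/- cells at day 0. Values at day 6 were 19.2 and 25.5 FPKM in WT and 6.41 and 7.21 in *Pcgf5*-/- cells. The WT libraries at day 0 enclosed those of *Pcgf5*-/- cells, and at day 6 the genotypes did not overlap. *Gas1* rose in WT by 2.49 on the log2 scale (SE 0.35, adjusted p = 0.000663, limma), while the difference between days in *Pcgf5*-/- cells, 0.95 with a 95% interval from 0.15 to 1.76, missed the threshold (adjusted p = 0.0676) but passed it without WT replicate 1 or 2 of day 0 (0.0133 and 0.0126) and when only the *Pcgf5*-/- libraries were fitted (0.0203). At day 6 it was lower in *Pcgf5*-/- cells, with a log2 difference of -1.57 (SE 0.35, adjusted p = 0.0219, limma). This call was lost when all genes above 0 were tested (adjusted p = 0.0624) and when either WT library at day 6 was left out (0.0544 without replicate 1 and 0.129 without replicate 2) or either *Pcgf5*-/- library at day 6 (0.114 and 0.0764), while the log2 difference stayed between -1.76 and -1.37.

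*Gas1* is also made by fibroblasts, and the cells had been grown on feeders. The 14 fibroblast markers, 13 of them tested, summed to 336 and 242 FPKM in WT and 210 and 763 in *Pcgf5*-/- cells at day 0, and to 57.5 and 139 in WT and 32.8 and 34.3 in *Pcgf5*-/- cells at day 6. Their sum was lower at day 6 in both genotypes. *Acta2*, the most abundant of these markers at day 6, then had 21.9 and 92.0 FPKM in WT and 13.9 and 14.9 in *Pcgf5*-/- cells. Of the 13 tested markers, 11 were lower and 2 higher at day 6 than at day 0 in WT, and all 13 were lower in *Pcgf5*-/- cells. *Col1a1*, the most abundant of them at day 0, had 117 and 64.6 FPKM in WT and 73.8 and 263 in *Pcgf5*-/- cells at day 0, and between 3.09 and 11.3 at day 6, and *Fap* was listed at 0 in both *Pcgf5*-/- libraries at day 6. At day 6 the sum was higher in WT than in *Pcgf5*-/- cells, as were *Gas1* and *Boc*. The part of feeder cells in those differences, and in the differences of *Gas1* and *Boc* between days, was not tested.

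*Ptch1* (mm9, chr13:63612841-63666828), both the receptor and a target of the pathway, had 4.88 and 6.42 FPKM in WT and 3.42 and 4.02 in *Pcgf5*-/- cells at day 0. In differentiated WT cells it had 11.1 and 7.89 FPKM and in *Pcgf5*-/- cells 10.5 and 4.76, so that the genotypes overlapped. None of the comparisons of *Ptch1* passed the test. The log2 difference between genotypes at day 6 was -0.35, with a 95% interval from -1.09 to 0.39 (adjusted p = 0.493, limma), which leaves room for a difference in either direction. It was 0.15 without *Pcgf5*-/- replicate 2 at day 6, and both differences between days became calls without that library (adjusted p = 0.0490 in WT and 0.0244 in *Pcgf5*-/- cells).

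*Smo* (mm9, chr6:29685497-29711366) had 5.37 and 4.64 FPKM in WT and 8.49 and 14.1 in *Pcgf5*-/- cells at day 0. It was the most abundant of the 9 genes at day 6, with 33.0 and 38.7 FPKM in WT and 24.97 and 28.3 in *Pcgf5*-/- cells. The *Pcgf5*-/- libraries thus lay above WT at day 0 and below WT at day 6. *Smo* rose over the 6 days in both genotypes, by 2.62 on the log2 scale in WT (SE 0.22, adjusted p = 6.3e-05, limma) and by 1.20 in *Pcgf5*-/- cells (SE 0.22, adjusted p = 0.00565), or 7.16 and 2.35 times by the means. Neither difference between genotypes passed the test: it was 1.00 at day 0, with a 95% interval from 0.48 to 1.52 (adjusted p = 0.0816), and -0.41 at day 6, from -0.93 to 0.10 (adjusted p = 0.242). The 643 tested genes on chromosome 6, where *Smo* lies, had a median log2 difference between genotypes of 0.41 at day 0 against 0.10 elsewhere, and of 0.37 against 0.01 at day 6. With each chromosome centred on its own median, the difference of *Smo* was 0.49 at day 0 (adjusted p = 0.498) and -0.73 at day 6 (adjusted p = 0.0894).

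Of the 3 Gli transcription factors, 1 was called between genotypes or days. *Gli3* (mm9, chr13:15555556-15821858) had 3.23 and 2.95 FPKM in WT and 3.01 and 4.10 in *Pcgf5*-/- cells at day 0. WT cells at day 6 had 23.9 and 27.2 FPKM, and *Pcgf5*-/- cells 10.4 and 8.78. Libraries of the genotypes overlapped at day 0 and were apart at day 6. *Gli3* rose in WT by 2.70 on the log2 scale (SE 0.19, adjusted p = 2.3e-05, limma), 8.26 times by the means, and in *Pcgf5*-/- cells by 1.22 (SE 0.19, adjusted p = 0.00252), 2.70 times. At day 6 it was lower in *Pcgf5*-/- cells by a log2 difference of -1.33 (SE 0.19, adjusted p = 0.00643, limma), and the WT mean was 2.66 times the *Pcgf5*-/- mean. That call held in each alternative analysis and without each library in turn.

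*Gli2* (mm9, chr1:120730638-120950196), the main activator among the Gli factors, had 8.58 and 9.05 FPKM in WT and 7.20 and 8.71 in *Pcgf5*-/- cells at day 0. Its day 6 values were 6.36 and 8.06 FPKM in WT and 8.96 and 4.57 in *Pcgf5*-/- cells. Its 4 means lay within the spread of the *Pcgf5*-/- libraries at day 6, and no comparison passed the test. The log2 difference between genotypes was -0.13 at day 6, with a 95% interval from -0.76 to 0.49 (adjusted p = 0.779, limma), and the difference between days in WT was -0.27, from -0.89 to 0.36 (adjusted p = 0.441).

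*Gli1* (mm9, chr10:126766938-126778635), a target of the pathway and often read as a measure of its activity, had 1.04 and 0.276 FPKM in WT and 3.37 and 1.60 in *Pcgf5*-/- cells at day 0. By day 6 the values were 1.31 and 2.44 FPKM in WT and 1.98 and 0.989 in *Pcgf5*-/- cells. Both *Pcgf5*-/- libraries lay above both WT libraries at day 0, and the genotypes overlapped at day 6. No comparison of *Gli1* passed the test. The difference between genotypes was 1.06 at day 0 (95% interval from 0.24 to 1.89, adjusted p = 0.181, limma) and -0.21 at day 6 (from -1.04 to 0.61, adjusted p = 0.728). Replicates of 1 condition differed by more than their own bounds: in WT at day 0 Cufflinks gave the first library 0.768 to 1.32 FPKM and the second 0.146 to 0.406. The locus overlaps that of *Arhgap9*, which reached 2.20 FPKM, from 126766938 to 126766999, a small part of its 11698 bases. Reads of the overlap cannot be assigned with certainty.

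The upstream sequences are shown for *Gli3* and *Gas1*, which were lower in *Pcgf5*-/- cells at day 6, and for *Gli2*, which was not called, because Polycomb complexes in mESCs are known to act largely at promoters rich in CpG. RefSeq promoter entries (GRCm38.p6, a later build than that of the expression files) matched 6 of the 9 genes, *Ptch1*, *Smo*, *Gli2*, *Gli3*, *Hhip* and *Gas1*. Each run holds the 250 bases before the start of the gene, 5′ to 3′ on the strand of the gene, with CpG dinucleotides in capitals: *Gli3* at chr13:15463473-15463722 on the plus strand, *Gas1* at chr13:60177536-60177785 on the minus strand and *Gli2* at chr1:119053620-119053869 on the minus strand.
Gli3: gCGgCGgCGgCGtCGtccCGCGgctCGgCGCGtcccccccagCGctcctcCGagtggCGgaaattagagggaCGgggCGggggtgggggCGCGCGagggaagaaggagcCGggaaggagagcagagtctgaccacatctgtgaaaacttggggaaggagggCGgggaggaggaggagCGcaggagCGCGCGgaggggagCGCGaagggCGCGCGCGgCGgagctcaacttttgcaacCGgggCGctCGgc
Gas1: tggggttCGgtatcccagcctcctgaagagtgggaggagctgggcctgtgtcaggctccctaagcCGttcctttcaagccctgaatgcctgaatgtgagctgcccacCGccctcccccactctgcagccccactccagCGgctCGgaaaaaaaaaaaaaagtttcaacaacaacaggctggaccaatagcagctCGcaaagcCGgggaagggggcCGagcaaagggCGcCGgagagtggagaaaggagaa
Gli2: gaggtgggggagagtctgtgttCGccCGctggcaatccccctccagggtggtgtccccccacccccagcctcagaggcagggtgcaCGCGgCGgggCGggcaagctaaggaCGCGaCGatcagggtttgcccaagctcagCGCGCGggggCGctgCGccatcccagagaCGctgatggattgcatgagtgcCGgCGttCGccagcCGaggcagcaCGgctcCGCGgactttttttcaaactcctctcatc

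The *Gli3* run holds 34 CpG dinucleotides, the *Gas1* run 10 and the *Gli2* run 22, against a median of 6 in the same window of all 32851 promoters in the table. *Ptch1* had 41, *Hhip* 28 and *Smo* 15. All 6 genes thus lay above the median, those called at day 6 and those not called alike. The Gli binding motif GACCACCCA, searched on both strands (TGGGTGGTC on the other) in the 300 bases around each start, was present in 83 of the 32851 promoters (0.253%), and in 6.74% when 1 mismatch was allowed. In the 6 promoters it was not found in either form, which says only that these letters are not in this window.

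The ligand was close to the lower limit of detection, and the antagonist *Hhip* was low but had Cufflinks bounds above 0 in all 8 libraries. *Shh* (mm9, chr5:28783380-28793641) had 0.0269 and 0 FPKM in WT and 0.0241 and 0.0503 in *Pcgf5*-/- cells at day 0. WT cells at day 6 had 0.167 and 0.631 FPKM, with Cufflinks bounds from 0.0418 to 0.292 and from 0.394 to 0.853, and *Pcgf5*-/- cells 0.112 and 0.0271, with bounds from 0 to 0.224 and from 0 to 0.136. Only WT replicate 2 at day 6 lay above the bounds of the *Pcgf5*-/- libraries of that day; the bounds of WT replicate 1 overlapped theirs. *Shh* was not tested, and no fold is given for values this low. *Hhip* (mm9, chr8:82489750-82581907), which binds and sequesters the ligand, had 0.293 and 0.229 FPKM in WT and 0.646 and 0.484 in *Pcgf5*-/- cells at day 0, and 0.450 and 0.419 in WT and 1.44 and 0.813 in *Pcgf5*-/- cells at day 6. It was the only one of the 8 tested genes whose *Pcgf5*-/- libraries lay above WT on both days, and neither difference passed the test, with 0.31 at day 0 (adjusted p = 0.463, limma) and 0.55 at day 6 (95% interval from 0.11 to 1.00, adjusted p = 0.0864). With each chromosome centred on its median the latter was 0.76 and just passed (adjusted p = 0.0498). *Hhip* passed the FPKM minimum only through *Pcgf5*-/- cells at day 6, where it was highest. Its comparison at day 6 is therefore not independent of the filter. The Cufflinks bounds of *Hhip* at day 6 were 0.355 to 0.550 and 0.315 to 0.520 in WT. In *Pcgf5*-/- cells they were 1.25 to 1.64 and 0.663 to 0.961.

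Set against all tested genes, the counts read as follows. Between genotypes at day 0, 0 of the 8 genes were called, where 0.333% of all tested genes were called (0.288% higher and 0.0454% lower), and 2 of the 8 (*Smo* and *Gli1*) had an unadjusted p under 0.05 in limma. The *Pcgf5*-/- libraries lay above both WT libraries for 3 genes and below for 1, against 34.6% and 13.3% of all tested genes. At day 6, 3 of 8 were called lower and 0 higher, where 16.6% of all tested genes were called, 7.05% lower and 9.57% higher. The libraries at day 6 did not overlap for 4 genes that were lower in *Pcgf5*-/- cells (28.8% of all genes) and 1 that was higher (33.4%). The 1 that was higher, *Hhip*, passed the FPKM minimum only through *Pcgf5*-/- cells at day 6. The median log2 difference at day 6 was -0.38 over the 8 genes and 0.02 over all tested genes.

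Between days in WT, 4 of 8 genes were called higher and 0 lower, where 50.5% of all tested genes were called, 34.2% higher and 16.2% lower, and the median was 1.65 over the 8 genes and 0.22 over all. The days did not overlap for 7 genes that were higher at day 6 (49.5% of all tested genes) and 1, *Gli2*, that was lower (28.1%). In *Pcgf5*-/- cells 3 of 8 were called higher and 0 lower, where 32.3% of all tested genes were called, 21.9% higher and 10.4% lower, with a median of 0.87 over the 8 genes and 0.13 over all. Here the days did not overlap for 6 genes that were higher (43.3%) and for 0 that were lower (25.1%). The median over all genes was itself off 0 in some comparisons: quantile normalization moved it from 0.11 to 0.00 between genotypes at day 0 and from 0.22 to 0.01 between days in WT. After it, *Boc*, *Gli3*, *Smo* and *Gas1* differed between days in WT by 3.42, 2.42, 2.42 and 2.18, all still called, while the day 0 differences between genotypes of *Boc* and *Gli3*, 0.01 and 0.15 without it, turned to -0.16 and -0.0083. The plot of differences with their intervals gives each of the 8 genes in both kinds of comparison.

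**Figure D2:**
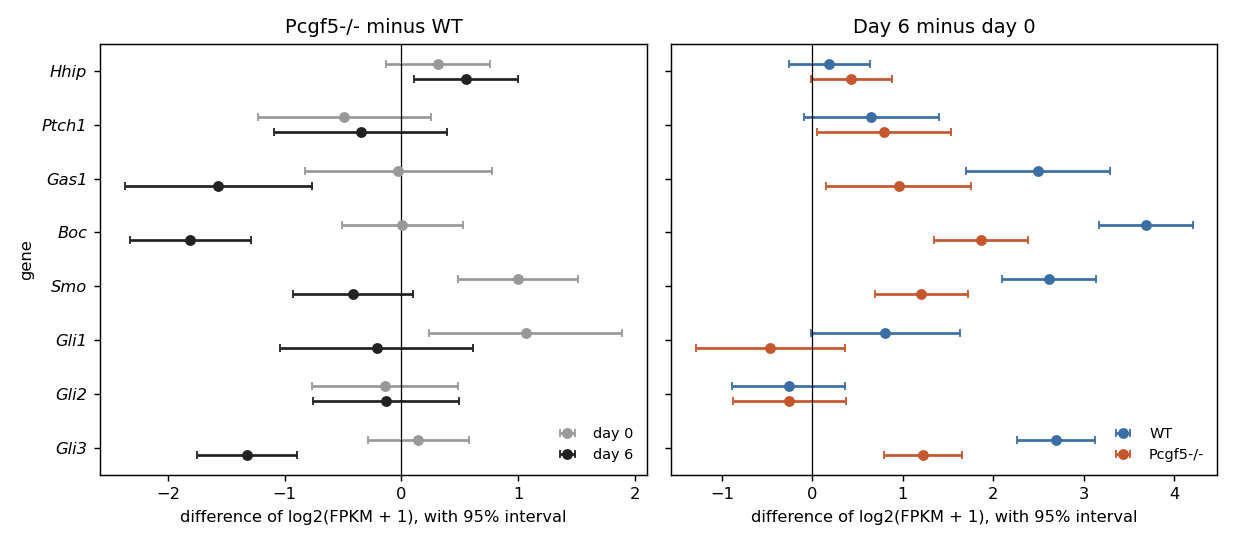
Differences of log2(FPKM + 1) for the 8 tested genes with 95% intervals from limma, *Pcgf5*-/- minus WT at day 0 (grey) and day 6 (black) on the left, and day 6 minus day 0 in WT (blue) and *Pcgf5*-/- cells (orange) on the right. At day 6 *Boc* (-1.81), *Gas1* (-1.57) and *Gli3* (-1.33) lie farthest below 0, and their day 0 values lie near 0.

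The difference in the change over 6 days was tested as an interaction of genotype and day. It was called for *Boc*, at -1.82 (95% interval from -2.55 to -1.08, adjusted p = 0.0327, limma), and for *Gli3*, at -1.47 (from -2.08 to -0.86, adjusted p = 0.0340), or 2 of 8 genes, where 3.09% of all tested genes were called, 1.75% with a lower and 1.34% with a higher change in *Pcgf5*-/- cells. *Smo* (-1.41, adjusted p = 0.0543), *Gas1* (-1.54, 0.117) and *Gli1* (-1.28, 0.185) missed the threshold, and *Ptch1* (0.14), *Gli2* (0.01) and *Hhip* (0.24) were near 0. *Smo* passed it without *Pcgf5*-/- replicate 1 of day 0 (adjusted p = 0.0445) or with an FPKM minimum of 5 (0.0490), and *Gas1* without WT replicate 1 of day 0 (0.0447). Both calls changed with single libraries and settings. No gene of the 8 was called without WT replicate 2 of day 0, WT replicate 2 of day 6, *Pcgf5*-/- replicate 2 of day 0, or either *Pcgf5*-/- replicate of day 6, and 1, *Boc*, was called without WT replicate 1 of day 6; both calls were also lost when all genes above 0 were tested or with a pseudocount of 0.01. Over these and the other alternatives the adjusted p of *Boc* ranged from 0.0248 to 0.133 and that of *Gli3* from 0.0273 to 0.125, with interaction values from -2.005 to -1.63 and from -1.64 to -1.26. The plot of the change over 6 days by genotype sets these genes beside other genes of the pathway.

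**Figure D3:**
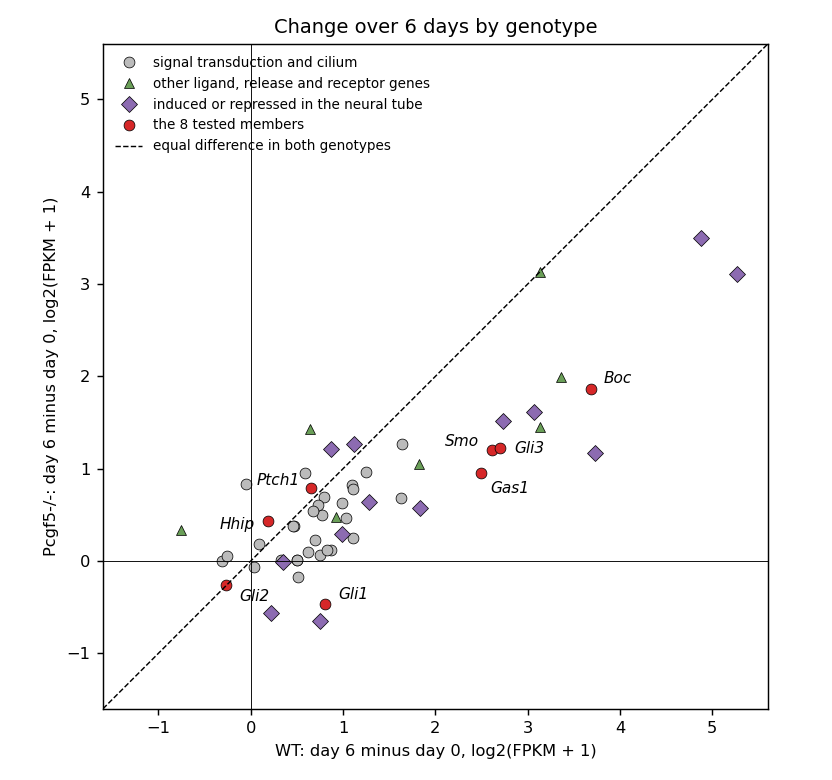
Difference of log2(FPKM + 1) between day 6 and day 0 in WT (horizontal) and in *Pcgf5*-/- cells (vertical) for the 8 tested genes (red) and other pathway and target genes; the dashed line marks equal differences in both genotypes. *Boc* (3.68 and 1.87), *Gli3* (2.70 and 1.22), *Smo* (2.62 and 1.20) and *Gas1* (2.49 and 0.95) lie below the line.

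The order of the 9 genes changed between days. In WT at day 0 the highest mean was that of *Gli2*, which did not overlap the others. *Ptch1*, *Smo*, *Gas1* and *Gli3* followed, each overlapping its neighbour among these. In WT at day 6 *Smo* came first, *Gli3*, *Boc* and *Gas1* followed with overlapping libraries, and *Ptch1* and *Gli2*, which overlapped each other, came next, ahead of *Gli1*, *Hhip* and *Shh*. In *Pcgf5*-/- cells at day 6 *Smo* was again first, and *Gli3*, *Ptch1*, *Gas1*, *Gli2* and *Boc* all overlapped with at least 1 neighbour.

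Ratios within a library do not depend on its scaling. The ratio of *Gli3* to *Gli2* was 0.376 and 0.326 in WT and 0.419 and 0.471 in *Pcgf5*-/- cells at day 0, and 3.76 and 3.37 in WT against 1.16 and 1.92 in *Pcgf5*-/- cells at day 6. *Gli2* was thus the more abundant at day 0 and *Gli3* at day 6 in all 4 libraries of each day, and at day 6 the ratios of the genotypes did not overlap. The ratio of *Ptch1* to *Smo* was 0.908 and 1.38 in WT and 0.403 and 0.284 in *Pcgf5*-/- cells at day 0, and 0.336 and 0.204 in WT and 0.419 and 0.168 in *Pcgf5*-/- cells at day 6. It was highest in WT at day 0, and the other 6 libraries overlapped.

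**Figure D4:**
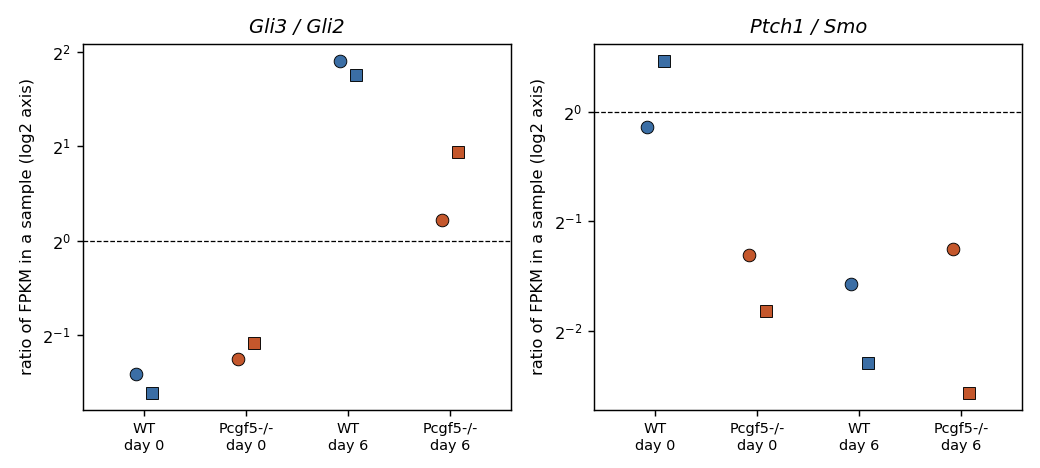
Ratio of *Gli3* to *Gli2* FPKM (left) and of *Ptch1* to *Smo* FPKM (right) within each library on a log2 axis, replicate 1 as circles and replicate 2 as squares, with the dashed line at equal levels. *Gli3* over *Gli2* is below 1 in the 4 day 0 libraries and above 1 in the 4 day 6 libraries, between 3.37 and 3.76 in WT and between 1.16 and 1.92 in *Pcgf5*-/- cells.

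Across the 8 libraries, which fall into 4 conditions and share their day and genotype, log2(FPKM + 1) of *Gli3* and *Boc* had a Pearson r of 0.995, *Gas1* and *Boc* of 0.965, and *Gli3* and *Gas1* of 0.953, given as a description. The genes most like *Boc* were *Fbxl7* (r = 0.999), *Faxc* (0.998) and *Fbxl17* (0.998). Those most like *Gli3* were *Npas3* (0.997), *Irx5* and *Galnt16* (0.996 each), and those most like *Gas1* were *Zadh2* (0.991), *Tshz1* (0.990) and *2010320M18Rik* (0.987). *Smo* was nearest to *Pus7l* (0.997), *Kif1c* and *Csk* (0.996 and 0.995), and *Ptch1* to *Tbl1x* (0.994), *Gm15800* (0.977) and *Rad54l2* (0.974). *Hhip* was nearest to *Mtl5* (0.980), *Steap2* (0.976) and *Nrf1* (0.970). For *Gli1* the nearest were *Slc10a3* (0.944), *Agpat3* (0.925) and *Syngr3* (0.923), and for *Gli2* *D130020L05Rik* (0.911), *Vegfc* (0.881) and *Zfp84* (0.872).

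The other genes of the pathway were listed by role, 28 in all, of which 24 were tested. In WT 18 rose and 1 fell between days, and in *Pcgf5*-/- cells 9 rose and 0 fell, with medians of 0.79 and 0.29. *Scube1*, *Scube2* and *Lrp2* had day 0 means under 1 FPKM and passed the minimum only through day 6. The counts of rises are therefore not independent of the filter. Of all tested genes 34.2% rose and 16.2% fell in WT and 21.9% rose and 10.4% fell in *Pcgf5*-/- cells, with medians of 0.22 and 0.13. Between genotypes 0 were called at day 0, while at day 6 1 was higher and 5 were lower, with a median of -0.20, where 9.57% of all tested genes were higher and 7.05% lower, with a median of 0.02. The counts for each role below are read against these shares.

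Among the genes of ligand production and release, *Ihh*, *Dhh* and *Hhat* stayed under the FPKM minimum and *Disp1* was listed at 0 in all libraries. The 3 *Scube* genes, whose secreted products help release the lipid-modified ligand, were the 3 tested, and all were lower in *Pcgf5*-/- cells at day 6. *Scube2* had 10.5 and 10.1 FPKM in WT and 1.74 and 2.70 in *Pcgf5*-/- cells, a difference of -1.83 (SE 0.21, adjusted p = 0.00393, limma). *Scube1* had 10.5 and 9.36 against 3.17 and 3.70, a difference of -1.30 (SE 0.18, adjusted p = 0.00603), and *Scube3* differed by -1.18 (adjusted p = 0.0123). The interaction was called for *Scube2* (-1.68, adjusted p = 0.0315) and *Scube1* (-1.37, adjusted p = 0.0363).

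Of the 4 other receptors and co-receptors, *Cdon*, the co-receptor related to *Boc*, rose by 1.82 in WT and 1.06 in *Pcgf5*-/- cells (adjusted p = 0.00149 and 0.0294, limma), and its difference of -0.79 at day 6 did not pass (adjusted p = 0.111). *Lrp2*, which encodes the endocytic receptor megalin, rose by 3.13 in both genotypes and passed the FPKM minimum only through day 6. *Gpc3*, a proteoglycan that competes for the ligand, was the most abundant of the 4 and rose by 0.65 in WT and 1.43 in *Pcgf5*-/- cells (adjusted p = 0.00590 and 0.000389).

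Of 17 genes of signal transduction, 12 rose in WT and 4 in *Pcgf5*-/- cells, 0 fell in either, and 2 were lower in *Pcgf5*-/- cells at day 6. The rises in *Pcgf5*-/- cells were near the 21.9% of all tested genes, and with 2 of 17 the count at day 6 was not far from 7.05%. *Sufu*, which holds Gli proteins in the cytoplasm, had 16.2 and 16.6 FPKM in WT and 10.7 and 9.19 in *Pcgf5*-/- cells, a difference of -0.67 (SE 0.16, adjusted p = 0.0278, limma). *Gsk3b*, a kinase that phosphorylates Gli proteins for processing, differed by -0.58 (adjusted p = 0.0463, limma). *Csnk1a1*, the most abundant of these genes, had between 87.4 and 129 FPKM in the 8 libraries. Of 12 genes of the primary cilium, 8 rose in WT and 7 in *Pcgf5*-/- cells. Among these 12, *Dync2h1* passed the FPKM minimum only through day 6, so the counts of rises are not independent of the filter. At day 6 the 1 called was *Tulp3*, an adaptor of ciliary trafficking, which was higher in *Pcgf5*-/- cells by 0.73 (SE 0.19, adjusted p = 0.0361, limma). A count of 1 of 12 is near the 9.57% of all tested genes called higher. *Tulp3* lies on chromosome 6, whose tested genes had a median log2 difference of 0.37 at day 6 against 0.01 elsewhere. The part of that shift in the *Tulp3* difference was not tested.

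Genes that Hedgehog signalling is known to induce in the ventral neural tube were few at these levels. Of 10 listed 5 were tested, and the same 3, *Nkx6-1*, *Nkx2-9* and *Olig2*, rose between days in each genotype. All 3 had day 0 means under 1 FPKM and passed the minimum only through day 6, so their rises are not independent of the filter. *Olig2* passed it only through *Pcgf5*-/- cells at day 6, where it was highest. *Nkx6-1*, a ventral progenitor factor, was the 1 called lower in *Pcgf5*-/- cells at day 6, with 5.01 and 6.90 FPKM in WT and 2.89 and 1.42 in *Pcgf5*-/- cells, a difference of -1.17 (SE 0.26, adjusted p = 0.0209, limma). *Olig2*, the motor neuron progenitor factor, had 0.575 and 1.18 against 1.11 and 1.67, a difference of 0.36 (adjusted p = 0.284), and *Nkx2-9* differed by 0.29 (adjusted p = 0.451). *Nkx2-2*, induced at the highest signalling levels, was under the minimum, between 0.0722 and 0.501 FPKM.

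Of 9 floor plate markers, with *Shh* itself among them, 6 were tested. In WT 5 rose and in *Pcgf5*-/- cells 3 rose and 1 fell. Of all tested genes 34.2% rose in WT, and 21.9% rose and 10.4% fell in *Pcgf5*-/- cells. All tested markers but *Ntn1* had day 0 means under 1 FPKM and passed the minimum only through day 6. The counts of rises are therefore not independent of the filter. *Foxa2*, which marks the floor plate and also endoderm, had 2.50 and 0.369 FPKM in WT and 0.588 and 0 in *Pcgf5*-/- cells at day 6, and passed the FPKM minimum only through WT at day 6. The 10 primitive endoderm markers, *Foxa2* among them, summed in the same order of libraries to 223, 43.9, 69.3 and 36.1 FPKM, and 10 of 10 were above 1 FPKM in WT replicate 1 against 3 in WT replicate 2. *Gata4*, an endoderm factor, had 10.6 and 0.706 FPKM in these WT libraries, while *Shh* was the higher in replicate 2 (0.167 and 0.631), and the part of endoderm cells in the *Foxa2* values was not tested. *Ntn1*, which encodes the guidance cue netrin and was the most abundant of the list, had 18.3 and 16.8 FPKM in WT and 5.75 and 4.70 in *Pcgf5*-/- cells at day 6, a difference of -1.58 (SE 0.17, adjusted p = 0.00377, limma), and fell by 0.99 on the log2 scale between days in *Pcgf5*-/- cells.

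Genes of the dorsal and intermediate neural tube that Hedgehog signalling is known to repress gave 6 calls of 8 tested at day 6, all lower in *Pcgf5*-/- cells, with a median of -1.18. *Pax3* had 9.92 and 16.1 FPKM in WT and 1.06 and 1.69 in *Pcgf5*-/- cells (-2.54, SE 0.25, adjusted p = 0.00377, limma), and *Irx3* had 53.6 and 69.6 against 14.9 and 18.9 (-1.80, SE 0.31, adjusted p = 0.0104). *Pax7* (-1.43), *Zic1* (-1.21), *Pax6* (-1.15) and *Msx2* (-0.91) were also called. Of the 8, *Zic1*, *Msx1* and *Wnt1* passed the FPKM minimum only through WT at day 6, where they were highest, so the call of *Zic1* and the count of 6 are not independent of the filter. Between days 7 rose in WT and 4 in *Pcgf5*-/- cells, and the interaction was called for *Pax3*, *Irx3* and *Pax6*. *Pax3*, *Pax7*, *Zic1*, *Msx1* and *Wnt1* passed the minimum only through day 6, so the counts of rises are not independent of the filter. *Pax6* and *Zic1* are also on the neural progenitor list given above, so the lists are not independent, and the part of the progenitor and pluripotency marker levels in these differences was not tested.

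Of 11 general targets reported for Hedgehog signalling in several tissues, 8 were tested. In WT 7 rose and in *Pcgf5*-/- cells 4 rose, and at day 6 3 were lower in *Pcgf5*-/- cells. Of all tested genes 34.2% rose in WT, 21.9% rose in *Pcgf5*-/- cells and 7.05% were lower at day 6. *Bcl2* had day 0 means under 1 FPKM and passed the minimum only through day 6. The counts of rises are therefore not independent of the filter. *Sfrp1*, a secreted Wnt antagonist, had 78.7 and 88.0 FPKM in WT and 21.9 and 30.0 in *Pcgf5*-/- cells (-1.66, SE 0.20, adjusted p = 0.00421, limma). *Bcl2*, an inhibitor of apoptosis, differed by -1.11 (adjusted p = 0.0106) and *Bmi1*, a Polycomb gene that is a paralogue of *Pcgf5*, by -0.95 (adjusted p = 0.0156). The interaction was called for *Bcl2* (-1.56, adjusted p = 0.0321).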

How the data were processed

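PolyA+ RNA-seq was done on 8 libraries, 2 for each of 4 conditions (WT and *Pcgf5*-/- cells at day 0 and day 6), grouped by their labels. Per the labels and the study's methods, the authors trimmed the reads, removed short and identical reads, mapped what remained onto the mm9 assembly (TopHat2 version 2.0.4) and deposited 1 table of FPKM values per library from Cufflinks (version 2.1.1), with lower and upper bounds in the same unit; the gene annotation is not given in the sources used here. Removal of identical reads can lower the FPKM of abundant genes.

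From these values, log2(FPKM + 1) was fitted in R 4.3.3 with limma 3.58.1 (mean-variance trend, 1 mean per condition over all 8 libraries, no block) for 13214 genes with a mean above 1 FPKM in at least 1 condition. Benjamini-Hochberg adjustment was over all of these, for each comparison separately, with a threshold of 0.05. The pipeline was tested on simulated data. The labels give no source for the libraries beyond a replicate number. The paper describes the lanes of its day 6 expression heatmaps as independent biological samples, without saying whether these were cultures or clones. The p-values measure the spread between libraries, whatever its source. The comparisons between genotypes and between days share libraries.

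All 9 Hedgehog genes are named; from the other lists (pathway genes by role, cilium, ventral targets, floor plate, repressed genes, general targets and cell type markers) those called, up to 6 by size, and the most abundant; and for each tested gene the 3 tested genes with the highest Pearson r, outside the 9 and with a locus of at least 300 bp. *Nkx2-9*, *Olig2*, *Nkx2-2*, *Foxa2*, *Gata4*, *Msx1*, *Wnt1*, *Fap*, *Cdon* at day 6 and the genes under the FPKM minimum were added after their values were seen. The 9 genes and all lists were chosen with earlier results of these data known. Alternatives changed the pseudocount, the FPKM minimum, the scaling, the variance model, the libraries in the fit, the replicate block, the centring by chromosome and the call rule (a ratio of mean FPKM of at least 1.5), 1 at a time. Values of some genes on these lists are not reported here, though the lists' counts include them. The fold between conditions is a ratio of mean FPKM.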

Additional observations from a re-analysis of the deposited data

Results flagged for a closer look

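For *Boc* the change over 6 days differed between genotypes by -1.82 on the log2 scale (3.68 in WT and 1.87 in *Pcgf5*-/- cells, limma interaction adjusted p = 0.0327). For *Gli3* it differed by -1.47 (2.70 in WT and 1.22 in *Pcgf5*-/- cells, adjusted p = 0.0340). Both were singled out because the test of the difference between genotypes itself passed the threshold, which 3.09% of all tested genes did in either direction. The tests share the day 0 and day 6 libraries, and each call was lost without some single libraries, as given above.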

How the results depend on the processing

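Of 326 differences of the 8 genes recomputed under other settings, 310 kept their direction and their side of the threshold, and of 320 recomputed without 1 library, 280 did; a library left alone in its condition was then assumed to vary like the others. The cause of the changes below was not tested. By the rule of a 1.5-fold ratio of means, 3 of 8 genes (0 by limma) differed between genotypes at day 0 and 7 (3 by limma) between days in *Pcgf5*-/- cells. At day 0 the rule called 2461 of the 13214 genes. Between days in *Pcgf5*-/- cells, 3077 to 5365 of all genes were called over the other settings, this rule among them. The interaction, called for 2 genes, was called for 1 with a pseudocount of 0.1, for 0 with 0.01, for 0 with no FPKM minimum and for 3 with a minimum of 5, and for 0 to 3 without 1 library. Without 1 library, 2 to 3 genes were called between genotypes at day 6, 4 to 5 between days in WT and 3 to 4 in *Pcgf5*-/- cells.

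At day 0 the difference between genotypes reversed for *Boc* with quantile normalization (-0.16) and centring by chromosome (-0.056), for *Gli3* with quantile normalization (-0.0083), and for *Gas1* with a pseudocount of 0.1 (0.0070) or 0.01 (0.013); that of *Gli2* in the interaction reversed with 0.1 (-0.0047) and 0.01 (-0.0061). Without 1 library, the day 0 difference ranged from -0.18 to 0.19 for *Boc*, from -0.62 to 0.56 for *Gas1* and from -0.027 to 0.32 for *Gli3*. The day 6 difference ranged from -0.50 to 0.079 for *Gli1*, from -0.55 to 0.29 for *Gli2* and from -0.85 to 0.15 for *Ptch1*. *Gli2* ranged from -0.68 to 0.16 between days in *Pcgf5*-/- cells and from -0.41 to 0.42 in the interaction, and *Ptch1* from -0.36 to 0.63 in the interaction.

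Over all tested genes, the 44 called between genotypes at day 0 became 6 with no FPKM minimum, 102 with a minimum of 5, 3 with quantile normalization, 2 with no variance trend, 2 with centring by chromosome, 0 with only the groups compared (2294 had an unadjusted p under 0.05 in limma), 2461 by the 1.5-fold rule and 1 to 22 without 1 library. The 2197 at day 6 became 4093 by that rule and 297 to 1977 without 1 library. Without 1 library, between 4702 and 6535 of 6668 were called in WT, 2367 to 4147 of 4271 in *Pcgf5*-/- cells and 4 to 347 of 408 in the interaction, which fell to 251 and 191 with the pseudocounts of 0.1 and 0.01 and to 86 with no minimum. The genotypes share replicate numbers. Between genotypes, the differences of replicate 1 and replicate 2 correlated over genes by 0.10 at day 0 and 0.39 at day 6. In other pairs of conditions they correlated by -0.08 to -0.02. The main fit took no pairing. The replicate block is 1 term shared by both days, so a pairing at day 6 alone was not tested. With the replicate block, all genes called were 1 at day 0 and 2410 at day 6, and the calls of the 8 genes were unchanged in number: 0, 3, 4, 3 and 2. With 2 libraries a condition and no read totals, small differences and genes below 1 FPKM, *Shh* among them, cannot be resolved.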
